A study of Mus musculus with 12 samples.

Results

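This section describes the gastrocnemius, the large calf muscle, of the inbred mouse strain BALB/c after its nerve had been cut, set against the same muscle of the other leg. The comparison used 6 of the 12 libraries of the series, 3 from right legs and 3 from left legs. All came from male wild-type BALB/c mice. In the right hind limb the sciatic nerve, which carries the motor axons of the calf, was divided, and its ends were turned away and stitched to nearby muscle. Muscle was collected 2 weeks later. Left leg muscle is labelled healthy; the protocol also mentions a sham operation, and whether the left legs had it is not in the labels. The labels give no age, and they do not say whether libraries of a group, or left and right libraries with the same number, came from separate mice, so a p-value here weighs a difference only against the spread among these libraries, which may be technical. The other 6 libraries were left and right legs of male wild-type C57BL/6 mice treated by the same protocol, and they were used here only where the change in BALB/c was set against the change in that strain. Polyadenylated RNA was sequenced. Levels are in RPKM, reads scaled by transcript length and by the size of the library. Of 25094 listed genes, 10858 averaged 1 RPKM or more over these 6 libraries and were tested, and 14236 lay below that filter.

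A motor axon keeps the acetylcholine receptor of a muscle fibre gathered under the nerve ending and, through the electrical activity it evokes, keeps the receptor genes silent elsewhere along the fibre. When the axon is lost, fibre nuclei along the whole length transcribe the receptor subunits of fetal muscle, together with myogenic transcription factors, and the fibre begins to shrink. Shrinkage is known to involve the ubiquitin-proteasome system, autophagy and a loss of metabolic enzymes.

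Each library's RPKM rest on a total of 18132600 to 19282900 reads, and 14826932 to 17323390 of them lay in listed genes. In the left legs the 10 genes with the highest left mean, led by the skeletal actin Acta1, the fast troponin Tnnt3 and the muscle creatine kinase Ckm, held 44.65%, 35.56% and 42.03% of the summed RPKM in libraries 1, 2 and 3. The same genes held 19.86%, 20.6% and 17.36% in the right legs. Most of them are defining genes of fast skeletal muscle, and the label of the tissue is muscle. RPKM are relative to a library's reads, so a value also depends on what the most abundant genes take. Each comparison is therefore given as deposited and again after median-of-ratios rescaling, which divides a library by its median ratio to the mean library; the factors were 0.761, 0.878 and 0.823 in the left and 1.26, 1.12 and 1.29 in the right legs. Libraries within a leg also differed. Left library 1 was low in slow fibre genes, right library 2 was high in red blood cell genes, and right library 3 was low in them; these values stand beside the results they touch.

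As deposited, 5597 genes rose in the denervated leg, 51.5% of those tested, and 979 fell, 9.02%, so that 60.6% changed in either direction. After rescaling 2700 genes rose, 24.9%, and 2630 fell, 24.2%, or 49.1% in either direction. The median log2 change over all tested genes was 0.51 as deposited and 0.0029 after rescaling, so the counts of rises and falls depended on the scaling. Every gene that rose after rescaling had also risen as deposited, and every gene that had fallen as deposited also fell after rescaling. Among the genes called under both scalings, 1037 rose and 917 fell by more than 2-fold after rescaling, 263 and 235 by more than 4-fold, and 46 and 21 by more than 16-fold. Levels of the legs did not overlap for 65.7% of tested genes as deposited and for 60.6% after rescaling. In bulk muscle, fewer cells of a type and less RNA per cell cannot be told apart, which holds for every list below.

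**Figure D1:**
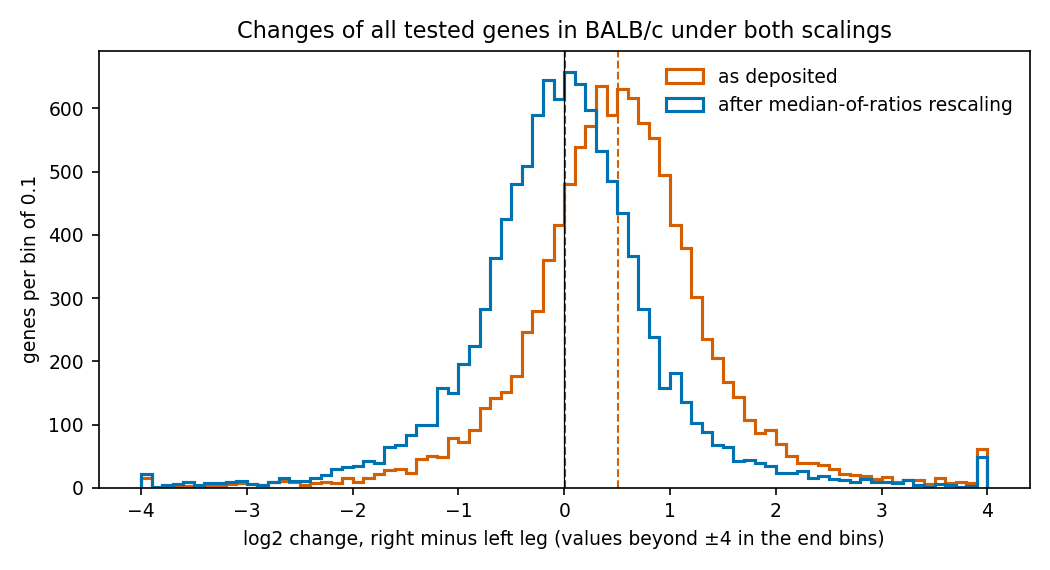
Histogram of the log2 change, right minus left leg, of the 10858 tested genes in bins of 0.1, as deposited (orange) and after median-of-ratios rescaling (blue); dashed lines mark the medians of 0.51 and 0.0029, and values beyond 4 in either direction are in the end bins. The deposited distribution is the rescaled one moved to the right, with tails on both sides under both scalings.

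In what follows, levels are given for libraries 1, 2 and 3 of each leg in that order, and means carry the SD over 3 libraries. Where a gene goes from 3 values to 3 others, the former are the left and the latter the right libraries. Changes are right less left in log2(RPKM + 0.5) with their SE. That scale understates the change of genes near 0. The filter takes a mean over both legs. A gene under 1 RPKM in every left library therefore passed only through the right legs, so counts lean to rises in such genes. Where 2 changes are given, the former is as deposited and the latter after rescaling. Adjusted p-values come from limma, adjusted by Benjamini-Hochberg over all tested genes. Counts of a list are to be read beside the 51.5% of rises and 9.02% of falls over all tested genes as deposited, and 24.9% and 24.2% after rescaling. The lists of junction organizers, tissue handling and satellite cells lay within 9.02 percentage points of these shares in both directions and scalings, and those of fibroblasts and their progenitors, IGF signalling, the ATF4 response and atrophy ligases within 14.7; nothing is read from those counts. Gene positions are in mm9.

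Transcripts of 4 subunits of the muscle acetylcholine receptor were abundant in the denervated leg and scarce in the intact one. Of 5 measured subunits, 4 rose and 1 fell under both scalings (51.5% of all tested genes rose and 9.02% fell as deposited). The median change of the 5 was 6.09 as deposited and 5.57 after rescaling. The receptor is a ring of 5 proteins, 2 of them alpha subunits, and the fetal form carries a gamma subunit where the adult endplate form carries epsilon. The 250 bases before the start sites of the subunit genes, and of Myog, one of the transcription factors known to act on them, are shown because these genes are textbook targets of factors that bind E-boxes; Chrnd had no entry. The sequences are from RefSeq in GRCm38.p6, on the strand of the gene, with each CANNTG (the E-box, which reads as CANNTG on either strand) in capitals.
Chrna1, chr2:73580339-73580588, minus strand: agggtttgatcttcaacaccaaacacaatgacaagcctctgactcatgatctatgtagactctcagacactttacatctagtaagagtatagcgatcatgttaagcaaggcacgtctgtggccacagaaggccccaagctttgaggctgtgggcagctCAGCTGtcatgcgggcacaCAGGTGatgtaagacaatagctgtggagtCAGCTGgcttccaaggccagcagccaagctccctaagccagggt
Chrng, chr1:87205561-87205810, plus strand: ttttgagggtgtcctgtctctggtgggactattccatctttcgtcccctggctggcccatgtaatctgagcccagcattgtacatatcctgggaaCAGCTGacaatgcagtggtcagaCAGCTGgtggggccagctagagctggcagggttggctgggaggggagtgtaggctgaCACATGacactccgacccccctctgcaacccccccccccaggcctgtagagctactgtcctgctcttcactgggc
Chrnb1, chr11:69795938-69796187, minus strand: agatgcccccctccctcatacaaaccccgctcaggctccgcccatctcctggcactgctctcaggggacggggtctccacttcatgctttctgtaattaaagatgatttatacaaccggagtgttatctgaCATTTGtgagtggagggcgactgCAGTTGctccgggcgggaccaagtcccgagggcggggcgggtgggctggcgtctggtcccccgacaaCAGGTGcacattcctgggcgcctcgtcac
Chrne, chr11:70619195-70619444, minus strand: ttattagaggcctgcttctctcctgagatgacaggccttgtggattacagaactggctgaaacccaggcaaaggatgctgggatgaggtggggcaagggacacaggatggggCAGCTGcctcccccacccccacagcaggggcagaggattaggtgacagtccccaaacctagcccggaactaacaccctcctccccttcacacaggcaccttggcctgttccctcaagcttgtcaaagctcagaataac
Myog, chr1:134289754-134290003, plus strand: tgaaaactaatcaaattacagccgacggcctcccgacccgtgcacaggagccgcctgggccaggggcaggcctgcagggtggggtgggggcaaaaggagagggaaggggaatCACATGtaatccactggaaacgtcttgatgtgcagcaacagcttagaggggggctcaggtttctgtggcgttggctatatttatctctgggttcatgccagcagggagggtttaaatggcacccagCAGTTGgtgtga
The windows of Chrna1, Chrng and Chrnb1 held 3 E-boxes each, that of Chrne 1 and that of Myog 2. The form CAGCTG occurred 2 times in each of the Chrna1 and Chrng windows and 1 time in that of Chrne, the subunit that fell. Of all 32851 promoters of the same length in the table, 66.2% held a CANNTG and 13% a CAGCTG, so the motif is common. Among 10917 promoters of genes tested here the shares were 57.5% and 12.3%, and among 2747 promoters of genes that rose under both scalings they were 59.6% and 13%.

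Chrng, the gamma subunit (NM_009604, chromosome 1, 89102386 to 89108410), stood at 0, 0.145 and 0.028 RPKM in the left and 71.6, 133 and 100.5 RPKM in the right legs. Its left libraries held 0, 5 and 1 reads, so the transcript was close to absent in the intact and abundant in the denervated leg. The change was 7.48 ± 0.23 and 7.18 ± 0.26 (adjusted p = 4.8e-07 and 2.0e-06). Chrna1, the alpha subunit that binds acetylcholine (NM_007389, chromosome 2, 73401338 to 73418395), read 1.64, 3.30 and 2.13 RPKM on the left and 170.0, 169.9 and 235 RPKM on the right, a ratio of means of 81.2. Right library 3 was the highest of the 3, and no left library came near any of them (change 6.09 ± 0.23 and 5.57 ± 0.20). Chrnd, the delta subunit next to Chrng on the chromosome (NM_021600, chromosome 1, 89087172 to 89096645), went from 0.891, 1.94 and 0.529 to 111, 174 and 209 RPKM (change 6.72 ± 0.33 and 6.25 ± 0.34). Chrnb1, the beta subunit (NM_009601, chromosome 11, 69597538 to 69609439), was the one of these 4 with the highest level in the intact leg, 12.2, 8.86 and 12.4 RPKM, and stood at 116, 93.5 and 129.6 RPKM after denervation (change 3.29 ± 0.18 and 2.72 ± 0.19). The means of the 4 subunits, which in the intact leg ranged from 0.0577 (Chrng) to 11.2 RPKM (Chrnb1), lay between 102 (Chrng) and 191 RPKM (Chrna1) in the denervated leg.

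Chrne, the epsilon subunit of the adult endplate (NM_009603, chromosome 11, 70428385 to 70432696), had 9.04, 11.6 and 10.8 RPKM in the left and 3.99, 10.1 and 4.18 RPKM in the right legs. As deposited, right library 2 lay among the left libraries, whereas right libraries 1 and 3 were below them. After rescaling the legs did not overlap. Chrne fell by 0.85 on the log2 scale as deposited (adjusted p = 0.0417) and by 1.38 after rescaling (adjusted p = 0.0111). The deposited call was lost without any one library other than right library 2, with adjusted p-values of 0.0501 to 0.141. Without right library 2 the deposited value was 0.000573. The rescaled call was kept without any one library (adjusted p of 0.000142 to 0.0368). Of 11 other nicotinic subunits, 10 lay below the filter, among them Chrna7, the alpha7 subunit that the series is about. In the intact legs 1, 3 and 0 reads fell on Chrna7, and in the denervated legs 1, 0 and 0, so no library exceeded the 3 reads that a count of 0 allows. Chrna10, a subunit known from hair cells, was the 1 that could be tested, and it fell from 5.27, 5.85 and 4.25 to 3.24, 2.41 and 1.86 RPKM (change -0.92 ± 0.21 and -1.42 ± 0.20).

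Among genes that build the neuromuscular junction, Musk rose and Ache fell, while the list as a whole had calls at about the share of all tested genes. Of 15 measured, 7 rose and 1 fell as deposited (46.7% and 6.67%, beside 51.5% and 9.02% of all genes), against 4 and 4 once rescaled (26.7% each, beside 24.9% and 24.2%; median change 0.29 and -0.15). The 4 that rose under both scalings were Musk, Rapsn, Erbb2 and Nes. Musk, the receptor kinase that gathers receptors in answer to agrin from the nerve, had 1.63, 2.86 and 2.23 RPKM in the left and 7.91, 7.91 and 8.58 RPKM in the right legs, a narrow range on the right and no overlap (change 1.68 ± 0.19 and 1.17 ± 0.15). Rapsn, the scaffold that holds receptors together, rose by 1.60 and 1.03. Nes, the intermediate filament nestin, which is gathered at the junction, went from 4.37, 8.87 and 7.41 to 38.9, 65.1 and 64.9 RPKM (change 2.96 ± 0.28 and 2.40 ± 0.28). Erbb2, a receptor for neuregulin that overlaps Mien1 and may share its reads, rose by 1.68 and 1.23. Ache, the esterase that destroys acetylcholine, went the other way: 13.4, 17.1 and 13.1 RPKM in the left and 1.98, 3.005 and 1.60 RPKM in the right legs, a fall to under the lowest left library in all 3 (change -2.50 ± 0.21 and -3.005 ± 0.22, adjusted p = 4.6e-05 and 4.5e-05). Lrp4, Colq and Utrn passed the test under neither scaling. Agrn, Lamb2 and Lama4 fell after rescaling only, and without left library 1 the count of falls as deposited was 2.

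**Figure D2:**
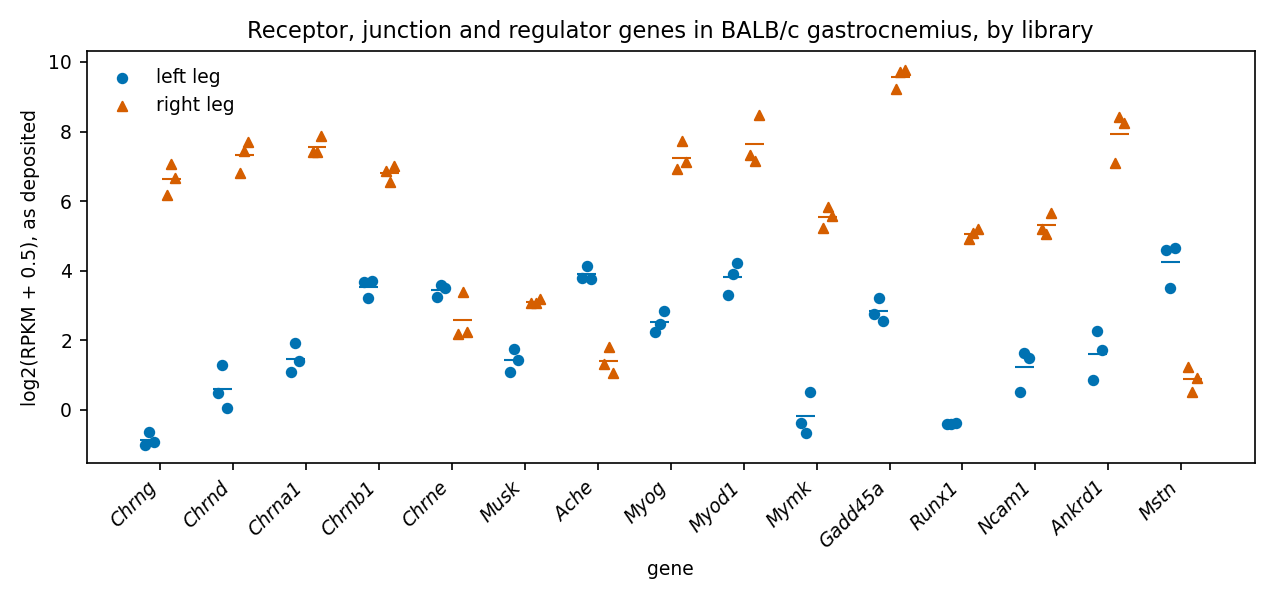
Level of 15 genes of the receptor, the junction and the regulators in each library, as log2(RPKM + 0.5) of the deposited values; circles are the 3 left and triangles the 3 right libraries, and bars mark their means. Chrng, Chrnd, Chrna1 and Chrnb1 lie far above their left values, Chrne overlaps between the legs, and Ache and Mstn lie below theirs.

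The MyoD family of transcription factors rose, and other regulators of muscle formation were divided. Of 17 measured myogenic regulators, 11 rose and 2 fell as deposited (64.7% and 11.8%), against 7 and 3 once rescaled (41.2% and 17.6%; median change 0.75 and 0.19), where 51.5% and 24.9% of all tested genes rose. The 4 factors of the MyoD family, which switch on muscle genes, all rose under both scalings. Myog (NM_031189, chromosome 1, 136186581 to 136189125) had 4.20, 5.08 and 6.64 RPKM in the left and 119.7, 209.8 and 138 RPKM in the right legs, with right library 2 the highest and every right library far above every left one. Its change was 4.73 ± 0.24 and 4.18 ± 0.27. Myod1 (NM_010866, chromosome 7, 53631844 to 53634462) went from 9.40, 14.6 and 18.0 to 159, 141 and 358 RPKM, where right library 3 was more than 2 times the other right libraries (change 3.84 ± 0.36 and 3.27 ± 0.34). Myf6 rose by 3.10 and 2.53 and Myf5, which is also a marker of satellite cells, by 1.85 and 1.40. Mymk, myomaker, a membrane protein needed for myoblast fusion, went from 0.273, 0.137 and 0.938 to 36.7, 56.5 and 47.5 RPKM (change 5.71 ± 0.30 and 5.30 ± 0.34). Id2 and Id3, inhibitors of the MyoD family, rose as well, by 3.50 and 1.58 as deposited and 2.99 and 1.02 after rescaling. Mstn, myostatin, the secreted brake on muscle growth (NM_010834, chromosome 1, 53118484 to 53124923), fell from 23.5, 10.8 and 24.6 to 1.87, 0.925 and 1.40 RPKM (change -3.35 ± 0.32 and -3.84 ± 0.34). Left library 2 was the lowest of the left libraries in Mstn, well under the others, and was still above every right library. Eya1, a co-activator of homeobox factors that drive fast fibre genes, fell by 0.78 and 1.28.

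Genes known to be held down by fibre activity rose almost throughout. Of 11 measured, 10 rose as deposited and 9 after rescaling, while Hdac5 fell after rescaling (median change 3.28 and 2.76). Runx1, under 1 RPKM in every left library, passed the filter only through the right legs. Gadd45a, a stress-induced protein known to drive atrophy of denervated fibres (NM_007836, chromosome 6, 66985090 to 66987401), stood at 6.25, 8.83 and 5.34 RPKM in the left and 601, 837 and 880.4 RPKM in the right legs, 113 times higher as a ratio of means. Right library 1 was the lowest of the 3 and the legs did not overlap (change 6.73 ± 0.22 and 6.18 ± 0.22). Runx1, a transcription factor that protects denervated muscle from wasting (NM_001111022, chromosome 16, 92601711 to 92826319), was even more uniform, with 0.255, 0.257 and 0.27 RPKM on the left and 29.5, 33.4 and 36.3 RPKM on the right (change 5.46 ± 0.14 and 5.07 ± 0.13). Ankrd1, a stretch-responsive protein of the sarcomere, went from 1.31, 4.34 and 2.82 to 136, 339 and 304 RPKM. Ncam1, an adhesion molecule that spreads over the membrane of denervated fibres and is also made by Schwann cells, went from 0.935, 2.62 and 2.32 to 36.4, 32.4 and 50.3 RPKM (change 4.09 ± 0.30 and 3.58 ± 0.27). Hdac4, the deacetylase that links loss of activity to Myog in the textbook account, rose by 2.60 and 2.07, and Sik1, a kinase of the class II deacetylases, by 3.28 and 2.76. Trim16 rose as deposited only, by 0.88.

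By the rule that ranks genes called under both scalings with no overlap between the legs, 8 genes had the largest rises. Sln, sarcolipin, a small protein that slows calcium pumping (NM_025540, chromosome 9, 53698058 to 53701656), headed them. It had 1.49, 6.09 and 20.3 RPKM in the left and 6823, 10655 and 10957 RPKM in the right legs, above Myh4, the main fast myosin, in each right library. Left library 3 was the highest left library by a wide margin, and its change was 10.48 ± 0.71 and 9.94 ± 0.72 (adjusted p = 1.9e-05 and 4.4e-05). Krt18, a keratin of simple epithelia (NM_010664, chromosome 15, 101858647 to 101862457), and its partner Krt8 (NM_031170, chromosome 15, 101827142 to 101834773) form filaments together. Krt18 went from 0.197, 0.396 and 0.116 to 263, 638 and 466 RPKM. Krt8 went from 0, 0.154 and 0.03 to 57.4, 118 and 50.4 RPKM, and both were highest in right library 2. Of 10 skin markers 9 were below the filter, and Krt5, Krt14, Krt1 and Dsg1a were at 0 in all 6 libraries. The marker that was measured, Trp63, a transcription factor also made in muscle, rose from 3.31, 4.01 and 3.28 to 45.6, 19.1 and 43.1 RPKM. Aldh3a1, an aldehyde dehydrogenase (NM_001112725, chromosome 11, 61022244 to 61031918), went from 0.139, 0.383 and 0.17 to 149, 294 and 375 RPKM. Rrad, a small GTPase that restrains voltage-gated calcium channels (NM_019662, chromosome 8, 107151970 to 107155189), went from 1.90, 3.35 and 3.20 to 771, 879 and 1212 RPKM, and Igfn1, a protein of the Z-disc (NM_177642, chromosome 1, 137850155 to 137902919), from 0.281, 0.621 and 0.138 to 200.5, 183 and 255 RPKM. A call under both scalings and a gap between the legs were conditions of the rule. Neither is a separate result for any of the 8. Col10a1, the collagen of growth plate cartilage (NM_009925, chromosome 10, 34109787 to 34116891), had 1 read in each left library and 69.9, 37.5 and 93.1 RPKM in the right legs; it overlaps Nt5dc1, so its reads are uncertain. Of 12 tendon and cartilage markers listed, Acan and Col2a1, which define cartilage, lay below the filter. Chrng completed the 8.

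The largest falls by the same rule included several genes known from muscle. Dhrs7c, an enzyme of the calcium store (NM_001013013, chromosome 11, 67611773 to 67629504), fell from 227, 160.3 and 216 to 3.17, 3.65 and 2.65 RPKM, 63.7 times lower as a ratio of means and with tight values in both legs (change -5.78 ± 0.18 and -6.31 ± 0.22, adjusted p = 4.8e-07 and 2.0e-06). Mlf1, myeloid leukemia factor, which is abundant in fast muscle (NM_010801, chromosome 3, 67178019 to 67203922), fell from 237, 172 and 209.6 to 5.36, 11.9 and 3.98 RPKM. Perm1, which activates genes of mitochondria in muscle (NM_172417, chromosome 4, 155590036 to 155595416), fell from 36.3, 82.3 and 40.4 to 1.34, 3.34 and 1 RPKM, with left library 2 at about 2 times the other left libraries. Kcng4, a modifying subunit of potassium channels, fell from 16.5, 21.2 and 16.5 to 0.178, 0.715 and 0.082 RPKM, and Tmem233, a membrane protein, from 131, 83.6 and 115 to 7.53, 6.14 and 3.10 RPKM. The rule took only genes called under both scalings whose legs did not overlap. Neither the call nor the gap is a separate result for any gene of this paragraph. Ostn, osteocrin or musclin, a peptide that muscle secretes (NM_198112, chromosome 16, 27307727 to 27351295), fell from 19.5, 28.3 and 22.3 to 0.867, 0.56 and 0.658 RPKM. Odf3l2 fell from 27.5, 6.62 and 18.8 to 0.461, 0.044 and 0.292 RPKM, and its left library 2 was far under the other left libraries.

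Genes of the fast contractile apparatus, where they changed, mostly fell. Of 17 fast fibre sarcomere genes, 1 rose and 7 fell as deposited, against 0 and 9 once rescaled (median change -0.69 and -1.27). The 9 other changes as deposited did not pass the test. Myh4, the myosin heavy chain of the fastest fibres and the main one of this muscle (NM_010855, chromosome 11, 67051314 to 67073949), had 9631, 7061 and 8713 RPKM in the left and 4833, 1761 and 3192 RPKM in the right legs, 2.60 times lower as a ratio of means. The right libraries differed among themselves by more than 2-fold and stayed under the left (change -1.48 ± 0.39 and -2.06 ± 0.42, adjusted p = 0.0103 and 0.00491). Myh1 and Myh2, the myosins of the less extreme fast fibres, did not pass the test. Myh1 (NM_030679, chromosome 11, 67013604 to 67038077) read 468, 987 and 435 RPKM on the left and 1072, 808 and 852 RPKM on the right (change 0.63 ± 0.32 and 0.05 ± 0.31, adjusted p = 0.119 and 0.902), and it overlaps the antisense transcript Myhas. Myh2 (NM_001039545, chromosome 11, 66984529 to 67011019) read 246, 776 and 367 RPKM on the left and 951, 1375 and 544 RPKM on the right (change 1.11 ± 0.46 and 0.54 ± 0.47, adjusted p = 0.0621 and 0.369). Left library 2 was the highest left library in both and overlapped the right legs; without it the deposited adjusted p was 0.00492 for Myh1 and 0.00938 for Myh2, which also passed without right library 3 (0.0315). Mybpc2, the fast form of myosin-binding protein C, had the largest fall of the list, from 1682, 1229 and 1507 to 157, 80.4 and 43.5 RPKM (change -4.15 ± 0.40 and -4.72 ± 0.44); it overlaps Fam71e1 and may share its reads. Casq1, the calcium store protein of fast fibres, fell from 2474, 1537 and 2173 to 668, 622 and 538 RPKM (change -1.74 ± 0.23 and -2.31 ± 0.29). Atp2a1, the fast calcium pump that Sln inhibits, fell by 1.47 and 2.05. The single rise as deposited was that of Mybph, myosin-binding protein H, by 0.99; without left library 2, 3 genes of the list rose as deposited, and without right library 2 or right library 3, 2 rose.

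Among slow fibre genes, Tnni1, Tnnt1, Csrp3 and Ankrd2 rose, and 1 left library stood apart. These were 4 of 15 measured, or 26.7%, under both scalings, a share below the 51.5% of all tested genes that rose as deposited and near the 24.9% after rescaling, and 0 fell (median change 1.00 and 0.43). The summed level of the list was 967, 4377 and 3699 RPKM in the left and 5237, 9847 and 4580 RPKM in the right legs, so left library 1 was about 4 times lower than the other left libraries. Without it 2 of the 15 fell as deposited and 3 fell after rescaling. After rescaling the count of rises was 2 without right library 1 and 1 without right library 2, and 1 fell without right library 2. Tnnt1, slow troponin T, had 38.6, 337 and 320.0 RPKM in the left and 1282, 1943 and 945 RPKM in the right legs. Left library 1 was far below the others, and the legs did not overlap even against left libraries 2 and 3 (change 3.04 ± 0.75 and 2.47 ± 0.75, adjusted p = 0.00782 and 0.027). The rescaled value was 0.0542 without right library 1 and 0.0906 without right library 2. Csrp3, muscle LIM protein of the Z-disc, went from 24.0, 82.6 and 74.6 to 429.9, 1457 and 535 RPKM, with right library 2 about 3 times the other right libraries (change 3.70 ± 0.56 and 3.13 ± 0.58). Ankrd2, a stretch-responsive relative of Ankrd1, rose by 2.94 and 2.37, and Tnni1, slow troponin I, by 2.85 and 2.28. Myh7, the slow myosin heavy chain (NM_080728, chromosome 14, 55589521 to 55613386), did not pass: 17.3, 193 and 161 RPKM in the left and 238, 192 and 141 RPKM in the right legs, overlapping apart from left library 1 (change 1.18 ± 0.79 and 0.61 ± 0.78, adjusted p = 0.224 and 0.538). It overlaps the transcript Mhrt.

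Among genes of embryonic muscle and of heart, Tnnt2, Myl4 and Myh3 rose and Actc1 fell. Of 10 measured, 6 rose and 1 fell as deposited, against 4 and 2 once rescaled (median change 1.14 and 0.58), where 51.5% and 24.9% of all tested genes rose. Without right library 2, 2 fell as deposited. Tnnt2, cardiac troponin T, a message of embryonic skeletal muscle, stood at 0.601, 3.63 and 0.787 RPKM in the left and 210.1, 226 and 260.0 RPKM in the right legs (change 7.01 ± 0.44 and 6.53 ± 0.43). Myl4, the embryonic and atrial light chain, went from 4.74, 6.42 and 7.62 to 276, 839 and 625 RPKM, and the right libraries ranged over a factor of 3 (change 6.30 ± 0.37 and 5.75 ± 0.40). Myh3, embryonic myosin (NM_001099635, chromosome 11, 66891802 to 66915793), had 3.92, 5.29 and 4.98 RPKM in the left and 28.1, 52.4 and 21.8 RPKM in the right legs (change 2.64 ± 0.29 and 2.09 ± 0.33), a level that remained small beside Myh4. Myl6b rose by 2.83 and 2.26. Actc1, cardiac actin, which fetal muscle also makes, went against the others and fell from 149.6, 116 and 219.8 to 44.6, 33.5 and 35.9 RPKM (change -2.03 ± 0.24 and -2.60 ± 0.25). Myh8, the myosin of newborn muscle, did not pass under either scaling (change -0.33 and -0.90).

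Calcium release and ion channel genes moved in both directions. Of 27 measured, 10 rose and 10 fell as deposited, against 6 and 13 once rescaled (median change 0.17 and -0.41). Beside Sln and Rrad, the genes that rose under both scalings included Kcnn3, the small-conductance potassium channel behind the hyperexcitability of denervated muscle, by 3.19 and 2.84, and the calcium channel subunits Cacng1 and Cacnb1. Those that fell under both included Clcn1, the chloride channel that steadies the fibre membrane, by 2.06 and 2.62, Scn4a, the adult sodium channel, by 1.09 and 1.66, and Kcnj2, an inward rectifier, by 1.09 and 1.60. Jph1 and Jph2, junctophilins that tie the surface membrane to the calcium store, fell by 1.03 and 1.50 as deposited and by 1.60 and 2.08 after rescaling. Kcna7, a potassium channel, fell from 31.0, 32.7 and 32.9 to 3.98, 4.76 and 2.81 RPKM with little spread on the left and no overlap (change -2.94 ± 0.18 and -3.47 ± 0.20). Ryr1, the calcium release channel, and Atp1b1, a subunit of the sodium pump, fell after rescaling only.

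Genes of glycolysis fell along nearly the whole pathway. Of 28 measured genes of glycolysis and glycogen, 24 fell and 2 rose as deposited, against 25 and 1 once rescaled (median change -1.46 and -2.01), where 9.02% and 24.2% of all tested genes fell. The summed level was 29283 to 34198 RPKM in the left and 10928 to 15739 RPKM in the right legs. Gpd1, glycerol-3-phosphate dehydrogenase, which returns the electrons of glycolysis to mitochondria, fell from 291, 232 and 275 to 27.8, 23.6 and 20.1 RPKM (change -3.46 ± 0.17 and -4.03 ± 0.20, adjusted p = 4.2e-06 and 9.1e-06). Pfkfb1, which makes the allosteric activator of phosphofructokinase, fell from 42.5, 51.8 and 35.2 to 4.02, 5.58 and 3.19 RPKM, and its relative Pfkfb3 fell by 3.03 and 3.58. Along the pathway, the falls as deposited were 1.22 for Hk2, hexokinase, 1.58 for Pfkm, phosphofructokinase, 2.57 for Tpi1, 2.77 for Eno3, the muscle enolase, 1.05 for Pkm and 2.19 for Ldha, lactate dehydrogenase. Pygm, the phosphorylase of glycogen breakdown, fell by 2.33. Slc2a4, the insulin-responsive glucose transporter GLUT4, fell by 1.32 and 1.89. Hk1, the hexokinase of most other tissues, rose from 2.22, 3.72 and 3.33 to 7.34, 5.13 and 9.29 RPKM (change 1.10 ± 0.24 and 0.58 ± 0.19); its rescaled call was lost without left library 1, left library 3, right library 1 or right library 3 (adjusted p of 0.0658 to 0.126), and it overlaps Hk1os. Gapdh, whose copies in the genome can take its reads, fell by 1.51 and 2.04.

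**Figure D3:**
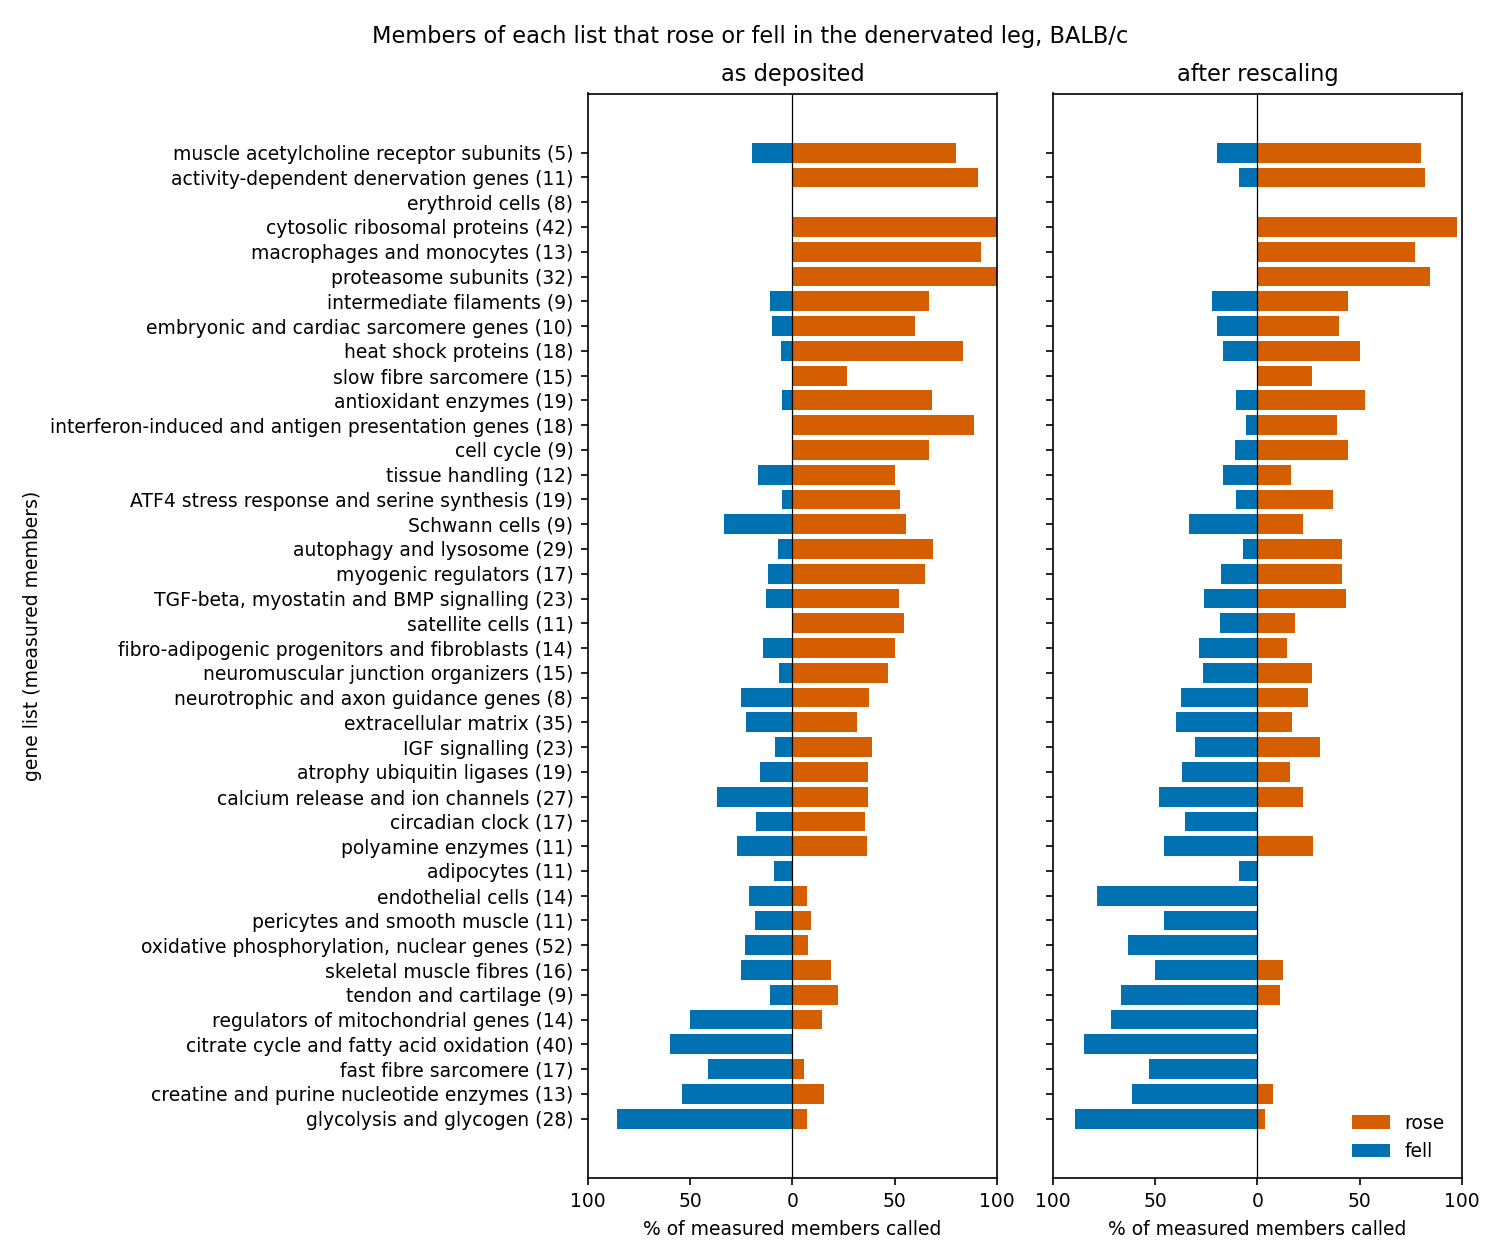
Percent of the measured members of each gene list that rose (right of 0) or fell (left of 0) in the denervated leg, as deposited and after rescaling, for lists with at least 5 measured members, ordered by their median rescaled change; among all tested genes 51.5% rose and 9.02% fell as deposited, and 24.9% and 24.2% after rescaling. Glycolysis and the citrate cycle lie mostly on the falling side and ribosomal proteins and proteasome subunits on the rising side under both scalings.

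Most genes of the citrate cycle and fatty acid oxidation fell, whereas 12 of 52 respiratory chain genes fell as deposited and 33 after rescaling. Of 40 genes of the citrate cycle and fatty acid oxidation, 24 fell and 0 rose as deposited, against 34 and 0 once rescaled (median change -0.67 and -1.22). Without left library 2, 2 rose as deposited. Idh2, the mitochondrial isocitrate dehydrogenase that makes NADPH, fell from 99.0, 242 and 135 to 36.9, 49.6 and 22.3 RPKM (change -2.09 ± 0.37 and -2.66 ± 0.37). Acaa2, the last enzyme of the fatty acid oxidation spiral, fell from 64.2, 135 and 65.2 to 18.2, 34.6 and 11.954 RPKM (change -2.05 ± 0.40 and -2.61 ± 0.42). In both, left library 2 was highest on the left and right library 2 on the right, and the legs did not overlap. Cs, citrate synthase, fell by 1.26 and 1.84 and Cpt1b, which admits fatty acids to mitochondria, by 1.31 and 1.88. Of these respiratory chain genes, all of the nuclear genome, 4 rose as deposited and 0 once rescaled (median change -0.24 and -0.81). Right library 2 held a summed level of 21339 RPKM against 12668 and 13543 RPKM in the other right and 16069 to 19341 RPKM in the left libraries. Without right library 2, 31 of the 52 fell as deposited; after rescaling 47 fell without right library 2, and 20, 19 and 18 fell without left library 1, right library 1 and right library 3. Sdha, the catalytic subunit of succinate dehydrogenase, fell from 140.3, 212 and 139.7 to 65.5, 64.3 and 59.3 RPKM, and Ndufs1, the largest subunit of complex I, from 89.9, 116 and 83.1 to 39.4, 53.7 and 36.6 RPKM (changes -1.34 ± 0.19 and -1.15 ± 0.19 as deposited); Ndufs1 overlaps Ino80dos.

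Several regulators of mitochondrial genes fell. Of 14 measured, 7 fell and 2 rose as deposited, against 10 and 0 once rescaled (median change -0.71 and -1.09). The count of rises as deposited was 1 without left library 1 or right library 3 and 0 without left library 3 or right library 1. Ppargc1a, the coactivator PGC-1alpha that drives mitochondrial biogenesis (NR_132764, chromosome 5, 51845488 to 51958964), had 2.18, 3.35 and 2.48 RPKM in the left and 1.41, 0.807 and 1.27 RPKM in the right legs. Every right library was below every left one (change -0.93 ± 0.21 and -1.37 ± 0.17, adjusted p = 0.00543 and 5.0e-04). Esrra and Ppara, nuclear receptors that work with it, fell by 1.01 and 1.14 as deposited and by 1.58 and 1.48 after rescaling, and Rxrg, a retinoid receptor of muscle, fell by 2.0018 and 2.56. Nr4a1, an early-response nuclear receptor of active muscle, fell from 47.8, 142 and 109 to 7.99, 11.9 and 16.4 RPKM (change -2.91 ± 0.40 and -3.47 ± 0.37). Left library 1 was the lowest left library in it. Nr4a1 is also on the list of genes that answer quickly to handling of tissue.

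Enzymes of energy buffering and nucleotides fell more often than they rose. Of 13 measured genes of creatine and purine nucleotides, 2 rose and 7 fell as deposited, against 1 and 8 once rescaled (median change -0.90 and -1.45). Ckm fell from 26751, 20434 and 24023 to 7865, 7839 and 3873 RPKM (change -1.93 ± 0.39 and -2.50 ± 0.47). Ckmt2, the mitochondrial creatine kinase, fell from 684, 1543 and 697 to 65.2, 232 and 26.6 RPKM, a spread of more than 8-fold among the right libraries (change -3.60 ± 0.69 and -4.17 ± 0.73). The 2 AMP deaminases moved apart: Ampd1, the muscle form, fell by 1.37 and 1.94, whereas Ampd3, the form of red cells and other tissues, rose from 2.77, 5.30 and 4.37 to 29.6, 20.5 and 33.5 RPKM (change 2.62 ± 0.25 and 2.08 ± 0.21). Nt5c1a, which removes the phosphate of AMP, fell from 3.65, 8.46 and 4.85 to 0.408, 0.142 and 0.169 RPKM. Of 11 polyamine enzymes, 4 rose and 3 fell as deposited, against 3 and 5 once rescaled. Amd1, the decarboxylase that supplies the aminopropyl groups, fell from 46.1, 22.1 and 47.0 to 2.07, 1.36 and 2.50 RPKM (change -3.92 ± 0.31 and -4.43 ± 0.32); Amd2 is a near copy with the same values, so they are 1 measurement. Smox, spermine oxidase, fell by 3.07 and 3.63. Odc1, ornithine decarboxylase, which starts the pathway, rose from 4.87, 4.81 and 7.94 to 22.5, 22.8 and 27.7 RPKM (change 1.99 ± 0.20 and 1.44 ± 0.20), and its inhibitor Oaz1 rose by 1.24 and 0.67. The rescaled call of Oaz1 was lost without any one library but right library 1 (adjusted p of 0.0517 to 0.119). After rescaling 1 polyamine gene rose without left library 1 or right library 2, and 3 fell without left library 1 or left library 3.

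Subunits of the proteasome, which degrades ubiquitin-tagged proteins, rose together. Calls among the ligases that tag them were within 14.7 percentage points of the shares of all tested genes. All 32 measured proteasome subunits rose as deposited, against 27 rises and 0 falls once rescaled (median change 1.44 and 0.88). For all 32 the legs did not overlap as deposited, beside 65.7% of all tested genes. The summed level was 1644 to 1894 RPKM in the left and 4667 to 5907 RPKM in the right legs. Psmd4, which receives ubiquitin chains, rose from 106, 89.0 and 104 to 364, 426 and 478 RPKM (change 2.07 ± 0.16 and 1.50 ± 0.20). Psmc3, an ATPase of the base, rose from 104, 91.1 and 103 to 339.7, 375 and 443 RPKM (change 1.94 ± 0.16 and 1.37 ± 0.18). The 5 that did not pass after rescaling were Psma3, Psmb2, Psmb7, Psmd6 and Psme4. Of 19 ubiquitin ligases linked to atrophy, 7 rose and 3 fell as deposited (36.8% and 15.8%, beside 51.5% and 9.02% of all tested genes). Once rescaled, 3 rose and 7 fell (15.8% and 36.8%, beside 24.9% and 24.2%). The median change was 0.19 and -0.30. Without left library 1, 1 fell as deposited. Trim63, the ligase MuRF1 of the sarcomere (NM_001039048, chromosome 4, 133871035 to 133885544), had 80.6, 71.4 and 70.2 RPKM in the left and 165, 163 and 237 RPKM in the right legs, 2.54 times higher as a ratio of means, with right library 3 the highest. Its change was 1.32 ± 0.18 and 0.75 ± 0.19 (adjusted p = 3.7e-04 and 0.0124), and the rescaled value was 0.0544 without left library 3 and 0.0509 without right library 3. Fbxo32, atrogin-1 (NM_026346, chromosome 15, 58007434 to 58046447), went from 21.1, 21.5 and 17.8 to 53.1, 26.7 and 48.9 RPKM. Right library 2 was close to the left legs, and the change passed as deposited (1.02 ± 0.25, adjusted p = 0.00754) but not after rescaling (0.45 ± 0.22, adjusted p = 0.126, or 0.00879 without right library 2). Mdm2, the ligase of p53, rose from 14.5, 14.6 and 13.6 to 77.6, 71.2 and 97.1 RPKM (change 2.47 ± 0.15 and 1.91 ± 0.14), and Fbxo30, the ligase MUSA1 that BMP signals restrain, from 1.06, 1.62 and 1.02 to 4.68, 3.62 and 5.04 RPKM. Znrf1, which overlaps Ldhd, and Trim55, MuRF2, fell by 0.92 and 0.45 as deposited and by 1.47 and 1.01 after rescaling; the deposited value for Trim55 was 0.0556 without left library 1.

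Many autophagy and chaperone genes rose. Among 29 genes of autophagy and lysosomes, 20 rose and 2 fell as deposited (69% and 6.9%), against 12 and 2 once rescaled (41.4% and 6.9%; median change 0.75 and 0.21), where 51.5% and 24.9% of all tested genes rose. Map1lc3a, an LC3 protein of the autophagosome membrane, rose from 109, 93.0 and 126 to 1185, 1426 and 1250.3 RPKM, 11.8 times as a ratio of means and with no overlap (change 3.56 ± 0.18 and 2.98 ± 0.22). Ctsl, cathepsin L of the lysosome, rose from 16.3, 19.2 and 17.5 to 66.3, 58 and 59.996 RPKM (change 1.77 ± 0.13 and 1.21 ± 0.12), and Sqstm1, the cargo receptor, by 1.18 and 0.61. Ulk2, a kinase that starts autophagy, and Tfeb, a transcription factor of lysosomal genes, fell by 0.50 and 0.39 as deposited and by 1.05 and 0.96 after rescaling. The deposited count of falls was 0 without any one left library and 1 without right library 1 or right library 3, where adjusted p-values were 0.0597 to 0.111 for Ulk2 and 0.0552 to 0.136 for Tfeb. Of 18 heat shock proteins, 15 rose and 1 fell as deposited, against 9 and 3 once rescaled (median change 1.03 and 0.50); 2 fell as deposited without left library 1 or right library 2. Hspb8, a small chaperone that works with autophagy of damaged sarcomere proteins, rose from 140.3, 108 and 155 to 950.4, 1068 and 1305 RPKM (change 3.04 ± 0.20 and 2.47 ± 0.24). Hspb7 rose from 99.1, 246 and 252 to 870.2, 1448 and 1069 RPKM, with left library 1 again the lowest (change 2.59 ± 0.37 and 2.01 ± 0.38). Dnajb5, a cochaperone, fell by 0.58 and 1.15.

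Ribosomal protein genes rose as a block. All 42 measured rose as deposited and 41 after rescaling, Rpl15 being the exception (median change 1.83 and 1.26). The legs did not overlap for any of the 42 as deposited, and 65.7% of all tested genes had no overlap either. The summed level was 4027 to 4448 RPKM in the left and 12545 to 17148 RPKM in the right legs. Rpl3, a core protein of the large subunit, moved most, from 4.51, 6.66 and 5.30 to 57.7, 58.6 and 65.5 RPKM (change 3.36 ± 0.16 and 2.81 ± 0.14). Apart from Rpl3, Rpl38 had the largest rescaled change of the list, from 184, 235 and 236 to 819, 1329 and 1068 RPKM (change 2.27 ± 0.22 and 1.70 ± 0.25). These genes are made by every cell type of a muscle. Of 19 genes of the ATF4 stress response and serine synthesis, 10 rose and 1 fell as deposited, against 7 and 2 once rescaled (median change 0.87 and 0.31); 4 fell after rescaling without right library 2. Gdf15, a stress hormone, rose from 0.119, 0.16 and 0.156 to 1.02, 4.78 and 4.33 RPKM, and right library 1 was well under the other right libraries (change 2.39 ± 0.43 and 2.10 ± 0.43). Slc7a5, a transporter of large amino acids, rose from 0.266, 0.473 and 0.599 to 3.002, 2.7 and 6.58 RPKM. Chac1, which degrades glutathione, fell by 0.58 and 1.13, and Atf4 itself did not pass (change 0.25 and -0.32).

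Krt8, Krt18 and Aldh3a1 were among the filament and antioxidant genes that rose. As deposited 66.7% of filament and 68.4% of antioxidant genes rose, beside 51.5% of all tested genes. After rescaling these shares were 44.4% and 52.6%, beside 24.9%. Of 9 intermediate filament genes, 6 rose and 1 fell as deposited, against 4 and 2 once rescaled (median change 1.20 and 0.63). Lmna, the nuclear lamin, rose by 2.90 and 2.32. Des, desmin, the filament of the Z-disc, rose as deposited only (1.20 and 0.63), and Synm, synemin, which joins desmin, fell from 93.7, 70.3 and 95.4 to 54.0, 31.3 and 45.9 RPKM (change -0.999 ± 0.22 and -1.57 ± 0.22). Of 19 antioxidant genes, 13 rose and 1 fell as deposited, against 10 and 2 once rescaled (median change 0.97 and 0.42). The metallothionein Mt2, which binds metal ions, rose from 5.27, 18.3 and 15.4 to 118, 234 and 215 RPKM, with left library 1 the lowest (change 3.92 ± 0.44 and 3.36 ± 0.44), and Gpx3, the secreted glutathione peroxidase, by 3.46 and 2.89. Nqo1, a quinone reductase, was the deposited fall, by 0.64 and 1.16; it was lost as deposited without left library 3 (adjusted p = 0.0611), and 1 gene fell after rescaling without right library 3.

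Matrix genes moved in both directions. Of 35 measured, 11 rose and 8 fell as deposited, against 6 and 14 once rescaled (median change 0.28 and -0.27). The deposited count of falls was 4 without left library 2, left library 3, right library 2 or right library 3. Col1a2, a chain of collagen I, fell from 149.7, 215 and 188 to 104, 101 and 92.2 RPKM (change -0.88 ± 0.17 and -1.45 ± 0.17), and its partner Col1a1 fell by 0.76 and 1.33. Fmod, fibromodulin of tendon, fell from 78.9, 142 and 116 to 75.5, 48.2 and 57.8 RPKM. Col3a1, collagen III, rose as deposited only (0.56 and -0.01). Col19a1, a collagen of differentiating muscle cells, rose from 0.172, 0.089 and 0.185 to 15.6, 9.82 and 28.1 RPKM (change 4.70 ± 0.33 and 4.35 ± 0.29). Timp1, a metalloproteinase inhibitor that overlaps Syn1 and may share its reads, rose from 0.751, 1.92 and 1.68 to 7.84, 23.7 and 14.9 RPKM. Lox, which crosslinks collagen, and Postn, periostin, rose by 2.33 and 1.80 as deposited and by 1.81 and 1.26 after rescaling. Of 14 markers of fibroblasts and their progenitors, 7 rose and 2 fell as deposited, against 2 and 4 once rescaled (median change 0.53 and -0.001), with summed levels of 449 to 639 RPKM in the left and 793 to 848 RPKM in the right legs. The part of these cells in the matrix changes was not tested. The progenitor regulator Osr1 rose by 1.62 and 1.12, and the matrix protein Smoc2 fell by 0.49 and 1.06. The deposited count of rises was 4 without left library 1 or left library 3, and that of falls was 1 without left library 2, left library 3, right library 2 or right library 3. After rescaling 4 rose without left library 2, and 1 rose without left library 1, left library 3 or right library 2.

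Among the pathways that set muscle mass, Gdf5, Fst and Igfbp2 rose and Acvr2b, Mstn, Irs1 and Irs2 fell. Of 23 genes of the TGF-beta, myostatin and BMP families, 12 rose and 3 fell as deposited (52.2% and 13%), against 10 and 6 once rescaled (43.5% and 26.1%; median change 0.73 and 0.17), so that the share of rises as deposited was that of all tested genes, 51.5%; 3 fell after rescaling without right library 3. Gdf5, a BMP-family ligand known to protect denervated muscle, had 0, 4 and 1 reads in the left legs and 22.9, 23.2 and 23.0 RPKM in the right legs with almost no spread between them (change 5.45 ± 0.15 and 5.15 ± 0.14). Fst, follistatin, which traps myostatin and activin, rose from 0.88, 1.34 and 1.54 to 24.0, 23.9 and 20.1 RPKM (change 3.74 ± 0.18 and 3.25 ± 0.18). Acvr2b, the receptor of myostatin, fell from 2.70, 2.58 and 3.13 to 0.777, 0.426 and 0.73 RPKM (change -1.54 ± 0.19 and -1.95 ± 0.16), in the same direction as Mstn itself. Tgfb1 and Tgfb3 rose by 3.71 and 2.11 as deposited and by 3.16 and 1.55 after rescaling. Of 23 genes of IGF signalling, 9 rose and 2 fell as deposited (39.1% and 8.7%), against 7 and 7 once rescaled (30.4% each; median change 0.28 and -0.28), within 12.4 percentage points of the shares of all tested genes. Igfbp2, a binding protein, rose from 0.237, 0.119 and 0.058 to 61.1, 79.8 and 102 RPKM (change 6.97 ± 0.21 and 6.62 ± 0.21) and H19, the imprinted noncoding RNA beside Igf2, from 228, 391 and 228 to 1930.0, 3540.2 and 1461 RPKM. Igf2 itself did not pass (0.18 and -0.37). Irs2 and Irs1, the adaptors of the insulin and IGF receptors, fell by 1.64 and 0.66 as deposited and by 2.09 and 1.15 after rescaling, and 1 fell as deposited without left library 3, right library 2 or right library 3. Akt2 and Foxo1 rose under both scalings, by 2.07 and 2.06 as deposited.

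Among genes of signals between muscle and nerve, Gdnf and Ngfr rose and Ntf5 and Sema6c fell. Of 8 measured neurotrophic and axon guidance genes, 3 rose and 2 fell as deposited (37.5% and 25%, beside 51.5% and 9.02% of all tested genes), against 2 and 3 once rescaled (25% and 37.5%, beside 24.9% and 24.2%). Gdnf, a survival factor for motor neurons, rose from 0.111, 0.304 and 0.125 to 4.11, 3.25 and 8.01 RPKM (change 2.97 ± 0.30 and 2.64 ± 0.27). Ngfr, the receptor p75 of neurotrophins, rose from 1.13, 1.66 and 1.46 to 8.74, 3.81 and 9.72 RPKM, with right library 2 well under the others. Ntf5, neurotrophin-4, which active muscle makes, fell from 4.06, 3.86 and 3.35 to 0.452, 0.805 and 0.291 RPKM, and the semaphorin Sema6c from 53.7, 51.5 and 61.8 to 8.37, 6.94 and 6.84 RPKM (change -2.83 ± 0.14 and -3.39 ± 0.15). Of 24 listed cell cycle genes 15 lay below the filter, Mki67, Top2a and Cdk1 among them. Of the 9 measured, 6 rose and 0 fell as deposited, against 4 and 1 once rescaled. The largest rises were those of 2 inhibitors of the cycle. Cdkn1a, p21, went from 7.27, 8.76 and 14.9 to 524, 492 and 685 RPKM (change 5.76 ± 0.26 and 5.20 ± 0.25) and Cdkn1c, p57, from 19.9, 12.048 and 16.012 to 228, 261 and 351 RPKM (change 4.09 ± 0.22 and 3.53 ± 0.25). Of 17 clock genes, 6 rose and 3 fell as deposited, against 0 and 6 once rescaled. Hlf, an output factor of the clock, fell by 1.01 and 1.45, and the repressor Bhlhe41 by 0.54 and 1.09; without left library 1, left library 3 or right library 2 the deposited adjusted p of Bhlhe41 was 0.0723, 0.0981 and 0.0507. The deposited count of clock rises was 3 without left library 2, left library 3, right library 1 or right library 3, that of falls was 1 without left library 1 or left library 3, and 1 rose after rescaling without left library 1.

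Markers of macrophages rose in the denervated leg. Of 13 measured, 12 rose and 0 fell as deposited, against 10 and 0 once rescaled (median change 1.55 and 0.98). Their summed level was 66.1 to 112 RPKM in the left and 213 to 326 RPKM in the right legs. Gpnmb and Trem2, which macrophages that clear debris are known to make, rose. Trem2 was under 1 RPKM in every left library and passed the filter only through the right legs. Gpnmb went from 0.55, 1.05 and 1.28 to 7.75, 8.14 and 14.5 RPKM and Trem2 from 0.354, 0.56 and 0.546 to 4.75, 5.21 and 3.59 RPKM (changes 2.84 ± 0.28 and 2.34 ± 0.19 as deposited). No marker of the list was at 0 in all libraries, and Adgre1, Fcgr1, Itgam, Ccr2 and Ccl2 lay below the filter. Beside them, 16 of 18 interferon-induced and antigen presentation genes rose as deposited, against 7 rises and 1 fall once rescaled (median change 0.87 and 0.39); the part of macrophages in this was not tested. The class II genes of antigen-presenting cells rose under both scalings, H2-Ab1 from 6.38, 8.70 and 3.90 to 39.9, 39.8 and 26.5 RPKM and Cd74 by 2.20 and 1.63. Ifitm3, an antiviral membrane protein, had the largest rise of that list, from 54.4, 73.0 and 61.4 to 721, 1798 and 2169 RPKM (change 4.49 ± 0.38 and 3.91 ± 0.39). S100a8, a neutrophil protein, rose from 0.283, 0.285 and 0.556 to 39.4, 338 and 39.3 RPKM, highest in right library 2. S100a8 too passed the filter only through the right legs, and the other 12 markers of neutrophils and lymphocytes lay below it.

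Red blood cell genes differed widely between libraries of the same leg. Their summed level was 1674, 2427 and 331 RPKM in the left and 15211, 34045 and 532 RPKM in the right legs. Of 8 measured, 0 passed the test in limma under either scaling, 0 had an unadjusted p under 0.05, and 0 passed with limma-voom on recovered reads; without right library 3 all 8 rose under both scalings. Hba-a1, alpha globin, whose reads are shared with its copy Hba-a2, had 485, 665 and 77.9 RPKM in the left and 5128, 10468 and 141 RPKM in the right legs (adjusted p = 0.143 and 0.279, or 0.00376 and 0.0101 without right library 3). The library highest in globin, right library 2, was also the one highest in S100a8, Csrp3 and the summed oxidative phosphorylation genes. What part blood had in those values was not tested.

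**Figure D4:**
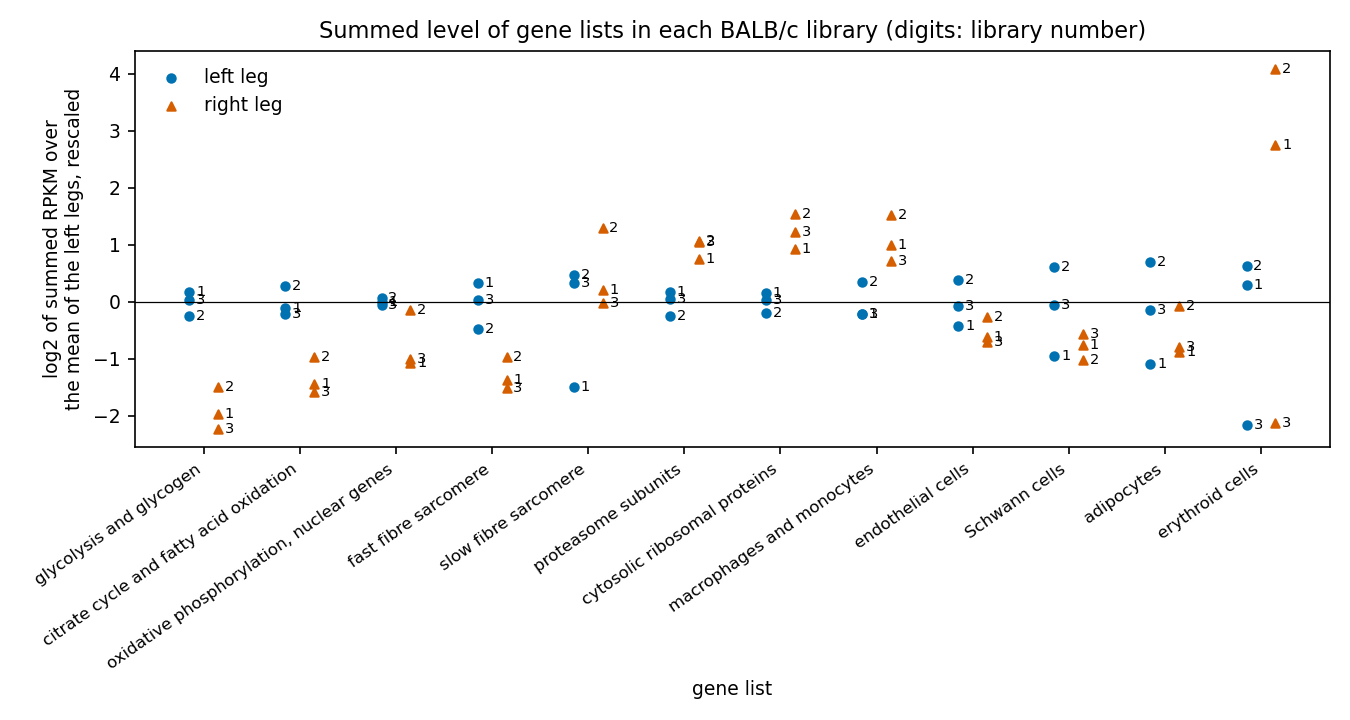
Summed level of 12 gene lists in each library after rescaling, as log2 of the ratio to the mean of the left legs; circles are left and triangles right libraries, and digits give the library number. Glycolysis and the citrate cycle lie below 0 and the proteasome, ribosomal and macrophage lists above 0 in all right libraries, while the erythroid list ranges from right library 2 at the top to right library 3 and left library 3 at the bottom, and left library 1 is low in the slow fibre list.

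Nerve sheath markers moved in both directions, most endothelial markers fell after rescaling, and few fat markers were called with all libraries. Of 9 measured Schwann cell markers, 5 rose and 3 fell as deposited, against 2 and 3 once rescaled (median change 0.67 and 0.27). The deposited count of rises was 3 without left library 1, left library 3, right library 1 or right library 3, and 4 rose after rescaling without left library 2. The myelin genes Prx and Pmp22 were among those that fell. Prx, periaxin, fell from 1.09, 4.65 and 2.37 to 0.29, 0.222 and 0.289 RPKM, and Pmp22 fell by 1.304 and 1.86. The summed level was 51.3, 174 and 104 RPKM in the left and 97.7, 72.7 and 115 RPKM in the right legs, so left library 2 held more than 3 times the level of left library 1. Ngfr, known from Schwann cells that have lost their axon, and Ncam1 were the 2 that rose under both scalings. Of 14 endothelial markers, 1 rose and 3 fell as deposited, against 0 and 11 once rescaled (median change -0.15 and -0.69). The rescaled falls were 78.6% of the list, beside 24.2% of all tested genes. Kdr and Flt1, receptors of vascular endothelial growth factor, fell, Kdr from 6.53, 13.2 and 6.92 to 4.38, 2.21 and 2.62 RPKM and Flt1 from 3.93, 6.94 and 4.56 to 2.99, 1.51 and 2.31 RPKM (changes -1.37 ± 0.30 and -1.03 ± 0.26 as deposited). Of 11 markers of pericytes and smooth muscle, 1 rose and 2 fell as deposited, against 0 and 5 once rescaled. The 1 rise was that of Des, which muscle fibres also make. The 2 falls were those of the pericyte genes Rgs5 and Mcam, by 0.72 and 0.68 as deposited, Mcam with 0.0567 without left library 3. As deposited 3 rose without right library 3 and 1 fell without left library 3. Of 11 satellite cell markers, 6 rose and 0 fell as deposited, against 2 and 2 once rescaled. Des was on this list too and was 1 of the 6. Pax7, which defines satellite cells, lay below the filter. Sdc4, a surface proteoglycan of activated satellite cells, rose from 3.73, 6.21 and 5.15 to 10.1, 25.1 and 32.7 RPKM, and its rescaled adjusted p of 0.0185 was 0.0563, 0.0667 and 0.0564 without left library 1, right library 2 and right library 3. Without left library 1, right library 2 or right library 3, 1 satellite cell marker rose after rescaling, and without left library 1, 1 fell as deposited. Of 11 fat cell markers, 0 rose and 1 fell under both scalings, Plin4, which overlaps Hdgfl2 (change -2.96 ± 0.38 and -3.49 ± 0.38). Left library 1 had the lowest summed fat level at 221 RPKM against 880 in left library 2 and 423 to 657 in the right legs, and without it 2 fell as deposited and 7 after rescaling; without left library 2, 1 rose as deposited.

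Tendon, whole-fibre and handling genes complete the lists. Of 9 measured tendon and cartilage markers, 2 rose and 1 fell as deposited, against 1 and 6 once rescaled. Scx, the tendon transcription factor, rose from 4.02, 5.85 and 7.46 to 41.0, 74.6 and 74.9 RPKM (change 3.34 ± 0.28 and 2.79 ± 0.29) while Tnmd, a gene of mature tendon, fell after rescaling only (-0.51 and -1.07); Scx overlaps Bop1 and may share its reads. As deposited 3 fell without left library 1, and after rescaling 2 rose without left library 2 or right library 1. Of 16 markers of muscle fibres themselves, 3 rose and 4 fell as deposited, against 2 and 8 once rescaled; the latter counts were 1 rise without left library 1, left library 3, right library 1 or right library 2, and 5 falls without left library 1, left library 3, right library 1 or right library 3. Mb, myoglobin, the oxygen store of oxidative fibres, rose from 2065, 4569.9 and 2596 to 12164, 20273 and 11743 RPKM (change 2.29 ± 0.39 and 1.72 ± 0.44); after rescaling it had 0.0592 and 0.0667 without left library 1 and left library 3. Of 12 genes that answer quickly to handling of tissue, 6 rose and 2 fell as deposited, against 2 and 2 once rescaled. Junb and Jun rose under both, Junb from 8.53, 23.4 and 12.5 to 75.5, 95.5 and 182 RPKM and Jun from 20.2, 44.5 and 28.5 to 123, 94.1 and 132 RPKM, while Fos did not pass (-0.58 and -1.11). Nr4a1, given above with the mitochondrial regulators, fell by 2.91 and 3.47 and kept its call without any one library under both scalings. Dusp1, a phosphatase of stress kinases, fell as deposited by 0.76 with all libraries but was lost without any one library other than left library 1 (adjusted p of 0.0655 to 0.111). The deposited count of handling rises was 3 without right library 2 or right library 3, that of falls was 1 without any one library but left library 1, and 4 rose after rescaling without left library 2.

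The change in BALB/c was then set against the change in C57BL/6, to ask which genes answered the cut nerve differently in the 2 strains. The test took the right minus left change in BALB/c minus that in C57BL/6, over the 10218 genes that averaged 1 RPKM or more in each strain's table. As deposited the change was more positive in BALB/c for 252 genes, 2.47%, and more negative for 545, 5.33%, or 7.8% in either direction. After rescaling these were 422, 4.13%, and 457, 4.47%, or 8.6% in either direction. The median difference was -0.11 as deposited and 0.0005 after rescaling. Without 1 library the counts ranged from 92 to 494 more positive and from 216 to 871 more negative. Among the genes named here, 32 differed under both scalings, 13 of them more positive and 19 more negative in BALB/c. Of the 32, 19 kept the call in all 12 fits that left out 1 library. The rule took 4 genes per direction from this same test and many others for their change in BALB/c. These counts are therefore no result about the named genes.

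The genes below include 4 per direction chosen for the size of their difference, and those given first were more negative in BALB/c. Changes within C57BL/6 are given as values, with no test of their own. In this and the next paragraph changes and differences are as deposited unless rescaling is named. Uchl1, a deubiquitinating enzyme of neurons that denervated muscle makes, had 1.81 ± 0.364 and 263 ± 31.9 RPKM (SD, n = 3) in the left and right legs of C57BL/6 and rose in BALB/c from 1.67 ± 1.23 to 13.1 ± 7.07 RPKM (difference -4.16 ± 0.62, adjusted p = 0.00399). It overlaps Uchl1os. Bdh1, which burns ketone bodies, had 1.78 ± 0.790 and 6.96 ± 3.72 RPKM in the left and right legs of C57BL/6, and it fell in BALB/c from 4.29, 22.2 and 13.0 to 0.32, 2.13 and 0.403 RPKM (difference -4.81 ± 0.85, adjusted p = 0.00874). Spp1 had 2.10 ± 3.55 and 33.8 ± 4.40 RPKM in the left and right legs of C57BL/6. Its change in BALB/c did not pass (0.41, adjusted p = 0.308). The difference was -4.34 ± 1.05 (adjusted p = 0.0287), a call kept in 5 of the 12 fits that left out 1 library. The tables of the strains were normalized separately, so levels were not tested across them. Csrp3 was higher in the right legs of both strains, with changes of 3.70 in BALB/c and 7.82 in C57BL/6, from intact levels of 60.4 ± 31.8 and 7.02 ± 4.92 RPKM to denervated levels of 807 ± 565 and 1546 ± 527 RPKM. Myoglobin followed the same pattern, with a change of 2.29 against 4.82 and denervated levels of 14727 ± 4808 and 15683 ± 1198 RPKM. Its listed intact level in C57BL/6 was 567 ± 144 RPKM, below each left BALB/c value given above. The fast myosins Myh1 and Myh2 had changes of 0.63 and 1.11 in BALB/c and of 2.91 and 3.77 in C57BL/6 (differences -2.28 ± 0.48 and -2.66 ± 0.59), and embryonic Myh3 of 2.64 and 5.38. Intact and denervated Myh1 levels were 630 ± 309 and 911 ± 141 RPKM in BALB/c, and 161 ± 79.1 and 1133 ± 180 RPKM in C57BL/6. Those of Myh2 were 463 ± 277 and 957 ± 416 RPKM in BALB/c, and 81.5 ± 25.4 and 1115 ± 308 RPKM in C57BL/6. For both, the listed levels of the strains lay further apart in the intact legs. Col1a2 fell by 0.88 in BALB/c and had a change of 2.02 in C57BL/6, where it went from 9.99 ± 2.05 to 43.9 ± 16.8 RPKM against 184 ± 32.8 and 98.8 ± 5.92 RPKM in BALB/c (difference -2.90 ± 0.34, adjusted p = 0.00223). Idh2, Sdha and Ndufs1 fell in BALB/c with changes of 0.13, -0.22 and -0.04 in C57BL/6 as deposited (differences -2.22, -1.13 and -1.11). After rescaling their changes in BALB/c were -2.66, -1.92 and -1.72 and the differences -2.09, -0.996 and -0.98. Each rescaled fall in BALB/c was larger than its difference, so on that scale the change in C57BL/6 was also negative. The call for Myh2 was lost without C57BL/6 left library 1 or 3 or right library 2 or 3 (adjusted p of 0.0536 to 0.0586), and that for Idh2 without C57BL/6 left library 1 or right library 2 or 3 (0.0508 to 0.0582).

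In the opposite direction, Col10a1 reached 66.9 ± 27.9 RPKM in the right legs of BALB/c and 4.87 ± 3.09 RPKM in those of C57BL/6, where it was listed at 0 in all left libraries (difference 3.65 ± 0.49, adjusted p = 0.00288). Myl4 had changes of 6.30 in BALB/c and 3.004 in C57BL/6, to 580.1 ± 284 and 145 ± 13.9 RPKM (difference 3.30 ± 0.44). Ankrd55, an ankyrin repeat protein, rose to 21.6, 38.0 and 52.7 RPKM in BALB/c from 5, 4 and 1 reads and had 4.64 ± 0.562 RPKM in C57BL/6 (difference 2.64 ± 0.34). The transcript 2210011C24Rik rose in BALB/c from 1.40, 0.489 and 2.03 to 4.44, 3.85 and 6.44 RPKM and had 3.02 ± 0.602 and 1.26 ± 0.375 RPKM in the left and right legs of C57BL/6 (difference 2.67 ± 0.43); its rise in BALB/c after rescaling was lost without right library 2 (adjusted p = 0.0504) or right library 3 (0.0753). Actc1 fell in BALB/c by 2.03 and had a change of -4.61 in C57BL/6, from 713 ± 130 to 31.0 ± 17.0 RPKM. Trim63 rose by 1.32 in BALB/c and had a change of 0.35 in C57BL/6 as deposited, where it went from 71.7 ± 1.83 to 91.6 ± 6.27 RPKM against 74.1 ± 5.70 and 188 ± 42.1 RPKM (difference 0.97 ± 0.19, adjusted p = 0.0137). After rescaling its change was 0.75 in BALB/c and -0.35 in C57BL/6, so its direction in C57BL/6 depended on the scaling. The receptor subunits were not among the genes whose change differed under both scalings.

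**Figure D5:**
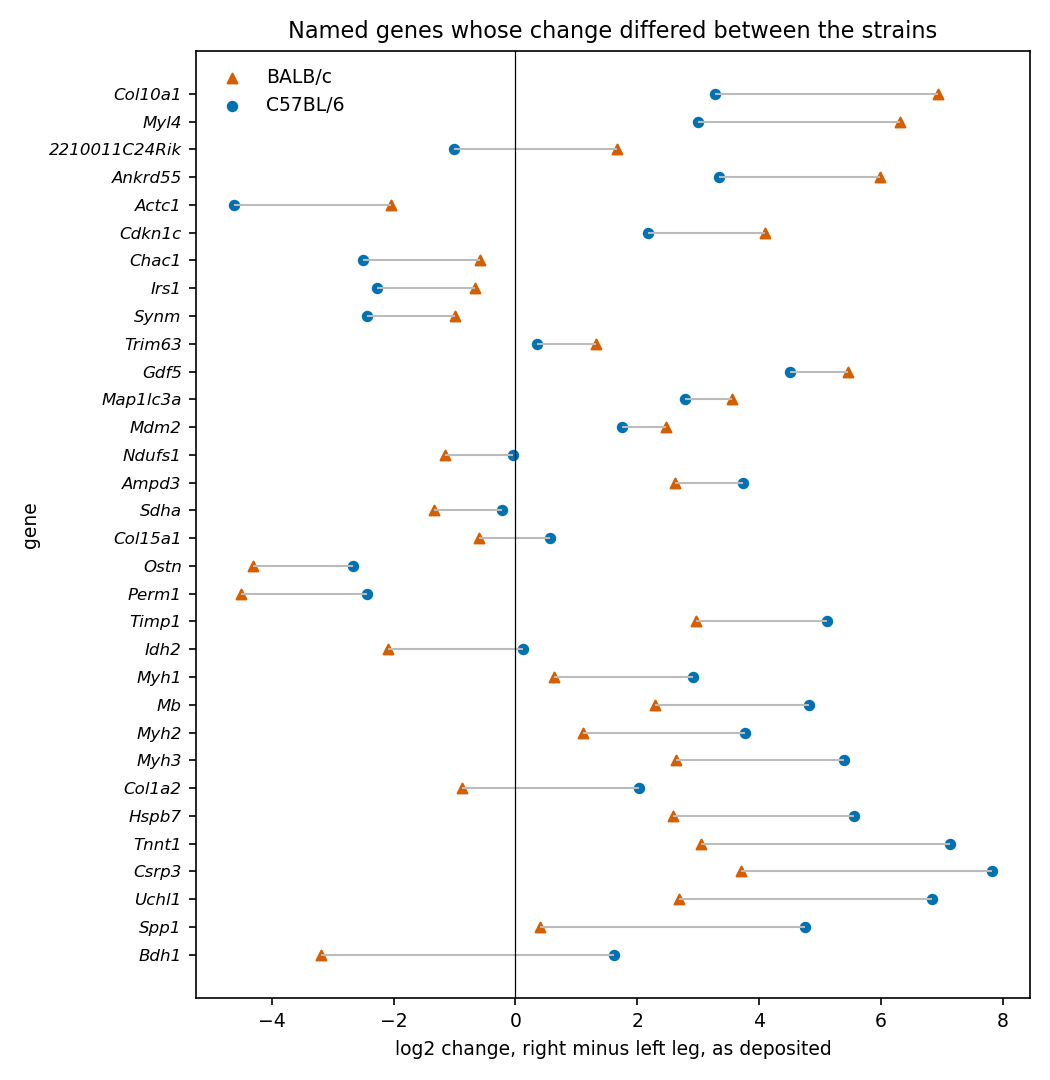
Log2 change, right minus left leg as deposited, of the 32 named genes whose change differed between the strains under both scalings; triangles are BALB/c, circles C57BL/6, and grey lines join the 2 values of a gene, ordered from the most positive difference (Col10a1) to the most negative (Bdh1). Csrp3, Tnnt1, Mb, Myh1 and Myh2 lie further to the right in C57BL/6, and Col10a1, Myl4 and Ankrd55 further to the right in BALB/c.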

How the data were processed

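Messenger RNA of 6 BALB/c and 6 C57BL/6 gastrocnemius libraries was measured. The authors deposited 1 table per strain of RPKM values per gene, made with HOMER on mm9 exons of both strands per the file headers; the submitters' processing notes also name HISAT2, DESeq2, GRCm38 and mm10, without versions or roles. Aligner settings are not given in the sources used here. Read numbers were recovered from the RPKM steps, and 99.864% to 99.952% of BALB/c values came out whole within 0.1 read.

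The 3 right and 3 left BALB/c libraries were compared in limma 3.58.1 (R 4.3.3) on log2(RPKM + 0.5), with empirical Bayes moderation and a trend, two-sided, over the 10858 genes averaging at least 1 RPKM. Calls were made where the adjusted p was under 0.05. The fit was repeated after median-of-ratios rescaling. The difference between strains came from 1 fit of 12 libraries. The scripts were tested on simulated data. Named genes were 21 fixed genes, the 8 largest rises and falls by rescaled change among genes called under both scalings without overlap, up to 2 genes per list and direction (or the most abundant member), and 4 per direction for the strain difference. Some genes that met these rules are not reported here. Other genes named with values are members of the 43 lists chosen after their values were seen. The members and lists were chosen with earlier results of these data known. Overlapping genes share reads, since strand was not used. The limit of 3 reads for a gene at 0 covers counting error only. Alternatives were other pseudocounts and filters, TPM, voom on recovered reads, a shared spread, no trend, a replicate block and leaving out each library.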

Additional observations from a re-analysis of the deposited data

Results flagged for a closer look

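The right minus left change differed between BALB/c and C57BL/6 under both scalings for 32 named genes, by a test of the difference itself. In BALB/c 135 named genes were tested. Of all 10218 genes in the test between strains, 7.8% differed as deposited and 8.6% after rescaling. The 32 include 4 per direction that were chosen by this test, so their number is no separate result. Values are differences of log2 changes as deposited, BALB/c minus C57BL/6, and 19 of the 32 kept the call in all 12 fits that left out 1 library. More positive in BALB/c were Trim63 (0.97), Col10a1 (3.65), Myl4 (3.30), Actc1 (2.58), Mdm2 (0.72), Map1lc3a (0.78), Chac1 (1.92), Synm (1.43), Gdf5 (0.95), Irs1 (1.61), Cdkn1c (1.92), 2210011C24Rik (2.67) and Ankrd55 (2.64). More negative were Myh1 (-2.28), Myh2 (-2.66), Myh3 (-2.75), Csrp3 (-4.12), Tnnt1 (-4.09), Perm1 (-2.06), Sdha (-1.13), Ndufs1 (-1.11), Idh2 (-2.22), Mb (-2.52), Bdh1 (-4.81), Timp1 (-2.15), Col1a2 (-2.90), Col15a1 (-1.16), Spp1 (-4.34), Ostn (-1.65), Hspb7 (-2.97), Ampd3 (-1.12) and Uchl1 (-4.16).

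The calls that leaving out a library ended belong to Myh2, Perm1 and Ostn (kept in 8 of 12 fits), Idh2 (9), Timp1 and Irs1 (7), Map1lc3a (6), Spp1 (5), Tnnt1 and Mdm2 (4), and Ampd3, Gdf5 and Col15a1 (2). Most of these losses came from leaving out a C57BL/6 library. In BALB/c, leaving out left library 2 ended the calls of Ostn (adjusted p = 0.056), Timp1 (0.0514), Irs1 (0.0576), Map1lc3a (0.0721), Spp1 (0.0592), Tnnt1 (0.0748), Mdm2 (0.0716), Ampd3 (0.102), Gdf5 (0.0612) and Col15a1 (0.101).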

How the results depend on the processing

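The count of rises was 5597 as deposited, 2700 after median-of-ratios rescaling and 3602 after rescaling to a common sum (TPM), and that of falls was 979, 2630 and 1086. Leaving out 1 library gave 4693 to 6129 rises and 769 to 942 falls, or 2040 to 2542 and 1980 to 2557 once rescaled. No filter gave 5353 and 867, limma-voom on recovered reads 4858 and 1109, and a spread shared with C57BL/6 6224 and 1187. For the strain difference, more positive genes numbered 252 as deposited, 422 rescaled, 78 with TPM and 153 with voom, and 92 (without C57BL/6 right library 3) to 494 (without BALB/c right library 2) when 1 library was left out. More negative genes numbered 545 as deposited, 317 with no filter, and 216 (without C57BL/6 right library 2) to 871 (without BALB/c left library 1). The cause was not tested. A replicate block by the label's number gave 5240 rises and 918 falls, and 240 and 511 for the strain difference. Same-numbered legs correlated by 0.0095, 0.0532 and 0.2351 and legs of different number by -0.1782 to 0.1119. Not every library correlated best with its own number, and the numbers were not taken to pair the samples. The submitters' own names skip the same number in both legs, and these correlations cannot settle whether the legs were paired.

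Of 135 named genes tested, 110 kept call and direction under the alternatives to the deposited fit listed above, pseudocounts, a lower filter and a fit without a trend, and none reversed. The rescaled fit without each library in turn is not in that tally, and there 125 of the 135 kept their call. With no filter the deposited calls of Chrne, Fbxo32, Myh4, Tnnt1, Ckm, Mb, Kdr and Flt1, among others, were lost. With 3 libraries a leg, transcripts of a few reads, such as Chrna7, could not be compared at this depth.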
